A study of Mus musculus with 86 samples.

Results

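The mouse mitochondrial genome encodes 37 genes, and these were picked here by their symbols, which start with mt-, from the 53664 genes in the quantification files of 36 mouse RNA-seq libraries. They comprise 13 protein-coding genes, 2 rRNA genes and 22 tRNA genes, and the remaining 53627 genes are nuclear. In all, 35 of the 37 had at least 10 reads summed over the libraries. The other two, the tRNA genes mt-Ts2 (5 reads) and mt-Tl2 (8 reads), are not described further. After the filter on low counts, 22 members were tested in CAD cells and 22 in N2A cells (13 coding, 2 rRNA and 7 tRNA genes in each), and 15 in the cells with TDP-43 transgenes, where no tRNA gene passed. A tRNA gene passed only where its reads reached the filter in enough libraries, so counts over the tested tRNA genes are not counts over all tRNA genes.

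The libraries hold polyA-selected RNA from the soma and neurite fractions of 2 mouse neuronal cell lines, CAD (a catecholaminergic line from the central nervous system) and N2A (a neuroblastoma line). Cells grew on a porous membrane, so that neurites passed through the pores to the underside and cell bodies stayed on top. In the CAD and N2A lines, selected as single-cell CRISPR clones, the endogenous gene for the RNA-binding protein TDP-43 was inactivated, and a single HA-tagged TDP-43 transgene that doxycycline switches off had been inserted at a loxP cassette. Wild-type cells of either line were kept without doxycycline, so they also lacked endogenous TDP-43 and lived on the transgene. Knockout cells of the same line received doxycycline for 48 h, at 2 µg/mL per the labels and 1 µg/mL per the study's methods. A further set of CAD cells expressed a wild-type TDP-43 transgene (WT transgene) or one with the ALS-associated Q331K change (Q331K transgene), which the methods describe as induced with doxycycline for 7 days. These HA-tagged transgenes were inserted as a single copy into wild-type CAD cells, so the endogenous TDP-43 alleles remained. The study reports that induction of the transgene lowered the endogenous TDP-43. There were 12 groups of 3 libraries. Nothing in the labels states that libraries of one group came from separate cultures, so the p-values measure the spread between these libraries, which may be technical.

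Mitochondrial DNA is transcribed from both strands into long RNAs that are cut into the rRNAs, mRNAs and tRNAs. Most genes are read from one strand, while mt-Nd6 and a set of tRNAs are encoded on the other. Most of the mRNAs receive short polyA tails and are kept stable by the LRPPRC and SLIRP proteins. All are translated inside the organelle by mitochondrial ribosomes into core subunits of the respiratory chain and ATP synthase. Mitochondria travel along neurites on kinesin and dynein motors and carry this RNA with them, so its level in a neurite follows the organelle as well as the RNA in it. The number of mitochondria in a fraction and the RNA in each mitochondrion cannot be told apart in bulk libraries. Doxycycline belongs to the tetracyclines, which block mitochondrial ribosomes. Since the CAD and N2A knockout groups received it and their wild-type groups did not, loss of TDP-43 and exposure to doxycycline cannot be told apart in those comparisons.

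The ends of the transcripts matter for libraries made by polyA selection. The annotated lengths of mt-Co3, mt-Nd4 and mt-Cytb, 3 of the 13 coding genes, are not multiples of 3 and stop on a lone T, the part of the stop codon encoded in DNA, with the rest supplied by the polyA tail as textbook background. The last 15 bases of these 3 and of mt-Co1, which has a full stop codon, are shown 5′ to 3′ from the GRCm38 annotation, with the stop codon or its encoded part in capitals.
mt-Co3: attgatgaggatctT
mt-Nd4: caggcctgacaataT
mt-Cytb: taaaattatatccaT
mt-Co1: gtaaaagtaaaaTAA

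Neighbouring genes overlap, and reads there cannot be given to one of them alone. mt-Atp8 (chrM 7766 to 7969, GRCm38) and mt-Atp6 (chrM 7927 to 8607), subunits of ATP synthase, share 43 bases, mt-Nd4l and mt-Nd4 share 7, and mt-Nd5 and mt-Nd6 share 14 on opposite strands. The window around the start codon of mt-Atp6, which lies inside mt-Atp8, is shown with that codon in capitals.
mt-Atp8: agaattaaaATGaacgaaaat

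A block of mouse chromosome 1 holds near-identical copies of several mitochondrial genes, annotated as unprocessed pseudogenes, and the counting by the authors could split reads between gene and copy. The first 25 bases of mt-Nd3 and of its copy Gm28438 (chr1:24612775-24613119, minus strand, GRCm38) differ by T3C, where the base of mt-Nd3 comes first, the position is counted from 1 at the 5′ end, and the base of the copy comes last. The base that differs is in capitals.
mt-Nd3: atTaacctgtacactgttatcttca
Gm28438: atCaacctgtacactgttatcttca

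The copy Gm28438 held 59.97 to 87.2% of the counts that it and mt-Nd3 had together in the transgene libraries, 68.6 to 86.0% in CAD and 66.7 to 81.8% in N2A libraries. Gm10925, which matches mt-Atp6 at 100% of 678 bases, held 1.83 to 42.0% in CAD, 0 to 11.6% in N2A and 71.1 to 84.1% in transgene libraries. Gm28437, the copy of mt-Co3, held 5.63 to 48.2%, 1.55 to 40.9% and 66.7 to 88.6% in the same order. The split of reads thus differed most in the transgene libraries, which were quantified against another index (133618 transcripts, against 135181 for CAD and N2A), so their values are compared only among themselves. The copy of mt-Co1 (Gm29216) held at most 5.00% of the joint counts in any library. That of mt-Co2 (Gm28661) held at most 6.96% in CAD and 1.73% in N2A libraries, and 1.54 to 14.4% in transgene libraries. That of mt-Nd4l (Gm10222) held 0% in every CAD and N2A library and 0 to 42.9% in transgene libraries. Values for mt-Nd3, mt-Atp6 and mt-Co3 alone are therefore uncertain in all cells, and those for mt-Co2 and mt-Nd4l in the transgene cells. For the main results on these genes, values with the counts of the copies added are given too.

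Library totals ranged from 9783050 to 32895542 estimated counts, of which at most 0.129% belonged to no gene. Tardbp, which encodes TDP-43, fell in the knockout by 2.52 in soma and 1.89 in neurites of CAD cells, and by 1.78 and 1.41 in N2A cells, all on the log2 scale (edgeR adjusted p at most 1.59e-08). It did not pass the test between Q331K and WT transgene cells (log2 difference -0.02 in soma and 0.08 in neurites). The 10 neuronal markers summed to 1355 to 3309 CPM (counts scaled to the size of the library) in every library, although Nefl and Nefm were below 1 CPM, and 8 glial and 6 fibroblast markers summed to at most 16.8 and 26.7 CPM. Of 8 catecholaminergic markers, Ddc, Slc18a2 and Slc6a2 were below 1 CPM in all groups.

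Mitochondrial mRNA made up a larger part of the RNA in neurites than in soma of CAD cells, and about the same part in wild-type N2A cells. In wild-type CAD cells the 13 coding genes held 4.03, 6.07 and 4.78% of all counts in the 3 soma libraries and 13.8, 21.2 and 16.0% in the 3 neurite libraries. In CAD knockout cells they held 4.66, 6.81 and 6.61% in soma and 13.5, 19.0 and 15.2% in neurites. All 6 neurite libraries were thus above all 6 soma libraries, whichever the genotype. The neurite share over the soma share was 3.43 ± 0.074 (SD, n = 3) in wild-type and 2.66 ± 0.322 in knockout CAD cells, and the 3 wild-type ratios all exceeded the 3 knockout ratios (exact permutation test on the log2 ratios, two-sided, p = 0.1, adjusted over 9 comparisons 0.15, n = 3). With 3 libraries against 3, 0.1 is the smallest p that this test can give. These ratios use soma and neurite libraries of the same number.

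In N2A cells the picture of the fractions was different. Wild-type libraries held 3.85, 5.88 and 5.19% mitochondrial mRNA in soma and 3.59, 6.34 and 5.77% in neurites, ranges that overlap almost completely. Knockout libraries held 6.61, 8.55 and 6.97% in soma and 8.06, 13.3 and 8.56% in neurites, above every wild-type library of the same fraction. The share was 1.48 times as high in knockout as in wild-type soma and 1.90 times as high in neurites (exact permutation test, p = 0.1 for each, adjusted 0.15, n = 3). The neurite over soma ratio was 1.04 ± 0.0944 (SD, n = 3) in wild-type and 1.33 ± 0.188 in knockout cells, and the ratios did not overlap (exact permutation test on the log2 ratios, p = 0.1, adjusted 0.15, n = 3).

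Cells with either TDP-43 transgene resembled the CAD pattern in direction. WT transgene libraries held 5.30, 4.69 and 5.07% in soma and 13.2, 13.8 and 11.6% in neurites. Q331K transgene libraries held 7.12, 5.39 and 6.17% in soma and 14.4, 15.1 and 16.9% in neurites, and in both fractions all 3 lay above the 3 WT transgene libraries (exact permutation test, p = 0.1 for each, adjusted 0.15, n = 3). The Q331K over WT ratio of the neurite shares, 1.20, depended on replicate 3 of both groups, without which the log2 ratio fell from 0.26 to 0.13. Neurite over soma ratios were 2.57 ± 0.339 and 2.52 ± 0.433 (SD, n = 3) in WT and Q331K transgene cells, and they overlapped (exact permutation test, p = 0.8).

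**Figure D1:**
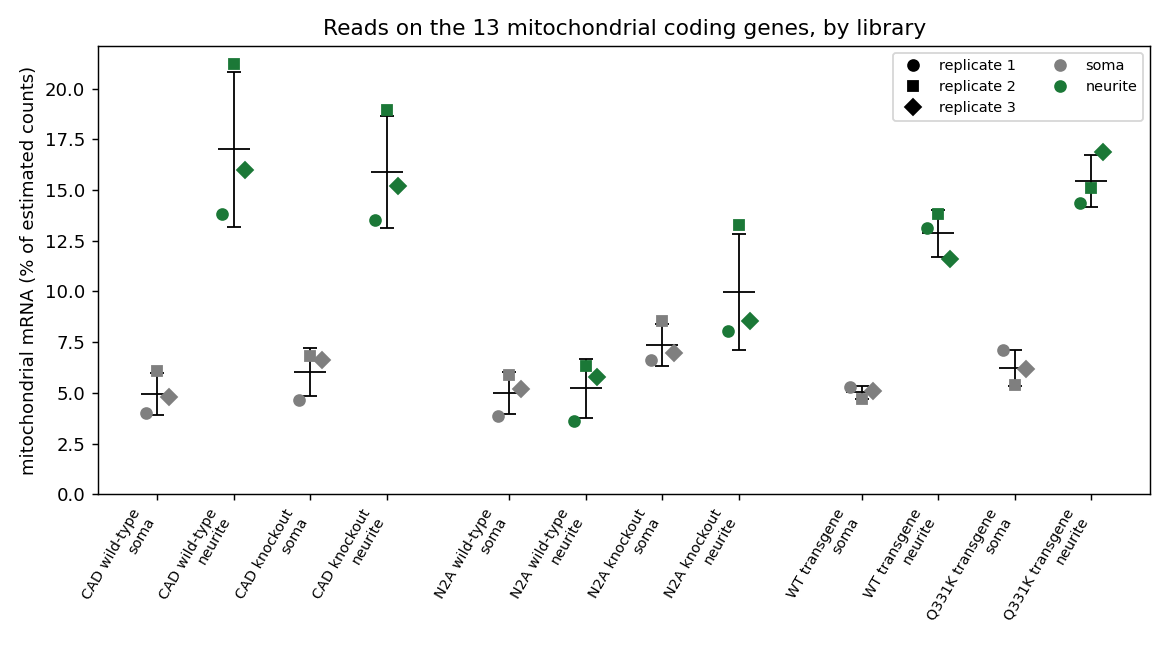
Share of all counts in the 13 mitochondrial coding genes, in percent, for each of the 36 libraries, by line, genotype and fraction; points are libraries (marker shape for the replicate number), horizontal lines are means and error bars are SD. Neurite libraries stand above soma libraries in CAD and transgene cells, from 4.03 to 6.81% in CAD soma and from 13.5 to 21.2% in CAD neurites, while N2A wild-type fractions overlap.

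In all 8 groups of CAD and N2A libraries the share was lowest in the library numbered 1 and highest in the one numbered 2. The labels state nothing of what a number marks. A share of counts depends on the transcript lengths and on the other RNAs in a library, and the same ratio taken from TPM, which corrects for the length of transcripts, was smaller, with a log2 value of 0.65 against 1.78 in wild-type CAD cells and -1.17 against 0.05 in wild-type N2A cells. In those libraries, transcripts with an effective length under 50 bases held 7.64 to 71.2% of all TPM but at most 2.38% of counts. Leaving them out, a step added after seeing the data, gave 1.26 in CAD and -0.17 in N2A cells.

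The comparisons of genotypes also depended on this choice. From summed TPM the change of the log2 ratio was -0.07 in CAD cells (exact permutation test, p = 1, n = 3) and 0.62 in N2A cells (exact permutation test, p = 0.3, n = 3), and the genotypes overlapped in both. The N2A neurite shares overlapped as well, at 2.23 to 7.21% of TPM in wild-type and 6.18 to 18.9% in knockout libraries (exact permutation test, p = 0.2, n = 3). N2A soma and both transgene fractions stayed without overlap. Without the short transcripts the genotypes did not overlap in any of the comparisons that were without overlap in counts, with changes of -0.32 in CAD and 0.32 in N2A cells.

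Gene by gene, the neurite over soma log2 ratio (LR) of mitochondrial RNAs in wild-type CAD cells was far above that of the typical gene. By edgeR's quasi-likelihood test, 18 of the 22 tested members were higher in neurites and 0 were lower at an FDR of 0.01, against 23.7% of all 17343 tested genes called higher. The median LR of the members was 2.34 and that of all tested genes -0.02. All 13 coding genes and both rRNAs passed. In knockout CAD cells 17 of 22 members were higher and 0 lower, with a median LR of 1.75, against 24.6% of all genes called higher.

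The rRNAs of the mitochondrial ribosome had the highest LR among the non-tRNA members in wild-type CAD cells. In knockout CAD cells this held for mt-Rnr1 and not for mt-Rnr2. mt-Rnr1 (12S rRNA, ENSMUSG00000064337, chrM 70 to 1024) measured 429, 478 and 391 CPM in wild-type soma, 3239, 5119 and 2877 in wild-type neurites, 380, 448 and 221 in knockout soma and 1193, 2374 and 1388 in knockout neurites of CAD cells. mt-Rnr2 (16S rRNA, ENSMUSG00000064339, chrM 1094 to 2675) measured 827, 1198 and 873 CPM in wild-type soma, 5316, 9032 and 5063 in wild-type neurites, 784, 1210 and 983 in knockout soma and 2409, 4190 and 2679 in knockout neurites. For both rRNAs every neurite library exceeded every soma library, and the knockout neurite libraries lay below the wild-type ones. The LR in wild-type cells was 3.11 ± 0.29 (SE, edgeR adjusted p = 2.48e-07) for mt-Rnr1 and 2.74 ± 0.25 (SE, edgeR adjusted p = 2.33e-07) for mt-Rnr2. PolyA selection captures rRNA only in part, so these levels do not give the amount of ribosomal RNA in a cell.

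Complex I, which takes electrons from NADH, has 7 mitochondrially encoded subunits, all of them higher in wild-type CAD neurites, with LRs from 1.68 (mt-Nd6) to 2.54 (mt-Nd4). mt-Nd6 (ENSMUSG00000064368, chrM 13552 to 14070, minus strand), the only coding gene on the opposite strand, had the lowest LR of the 13. It measured 434, 349 and 309 CPM in wild-type soma, 1300, 1207 and 988 in wild-type neurites, 383, 297 and 333 in knockout soma and 609, 690.5 and 669.8 in knockout neurites. mt-Nd3 (ENSMUSG00000064360, chrM 9459 to 9806) measured 61.6, 94.2 and 92.2 CPM in wild-type soma, 189.6, 370.5 and 333 in wild-type neurites, 65.4, 128 and 120.2 in knockout soma and 147, 327 and 292 in knockout neurites. Both genes were higher in all neurite libraries than in all soma libraries of the same genotype. The LR of mt-Nd6 was 1.68 ± 0.13 (SE, edgeR adjusted p = 3.7e-08), and that of mt-Nd3 1.85 ± 0.30 (SE, edgeR adjusted p = 9.13e-05), or 2.07 ± 0.15 (SE, edgeR adjusted p = 1.53e-08) with the copy added.

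mt-Cytb encodes cytochrome b, the mitochondrially encoded subunit of complex III, and mt-Co1, mt-Co2 and mt-Co3 the catalytic core of complex IV, cytochrome c oxidase. mt-Cytb (ENSMUSG00000064370, chrM 14145 to 15288) measured 4734, 6293 and 5658 CPM in wild-type soma, 25970, 39380 and 27240 in wild-type neurites, 5151, 7022 and 6062 in knockout soma and 17660, 24300 and 18340 in knockout neurites of CAD cells. mt-Co1 (ENSMUSG00000064351, chrM 5328 to 6872), the member with the most reads, measured 11390, 15210 and 13450 CPM in wild-type soma, 67900, 102200 and 71440 in wild-type neurites, 12050, 16700 and 15730 in knockout soma and 55880, 79030 and 61850 in knockout neurites. mt-Co2 (ENSMUSG00000064354, chrM 7013 to 7696) measured 2744, 4478 and 3334 CPM in wild-type soma, 15180, 26060 and 16210 in wild-type neurites, 4297, 6307 and 6444 in knockout soma and 19540, 28340 and 19480 in knockout neurites. Again no soma library reached the level of a neurite library. mt-Co1 had the highest LR of the coding genes, 2.59 ± 0.18 (SE, edgeR adjusted p = 1.33e-08), with 2.47 ± 0.18 (SE, edgeR adjusted p = 1.68e-08) for mt-Cytb and 2.44 ± 0.24 (SE, edgeR adjusted p = 3.88e-07) for mt-Co2. The ATP synthase subunits mt-Atp6 and mt-Atp8 had LRs of 2.31 ± 0.35 and 1.81 ± 0.42. With the copies added, the LRs were 2.33 ± 0.26 (SE, edgeR adjusted p = 1.36e-06) for mt-Atp6 and 2.39 ± 0.22 (SE, edgeR adjusted p = 1.72e-07) for mt-Co3. Standard errors of the coding LRs were 0.130 to 0.424, and differences between genes were not tested.

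**Figure D2:**
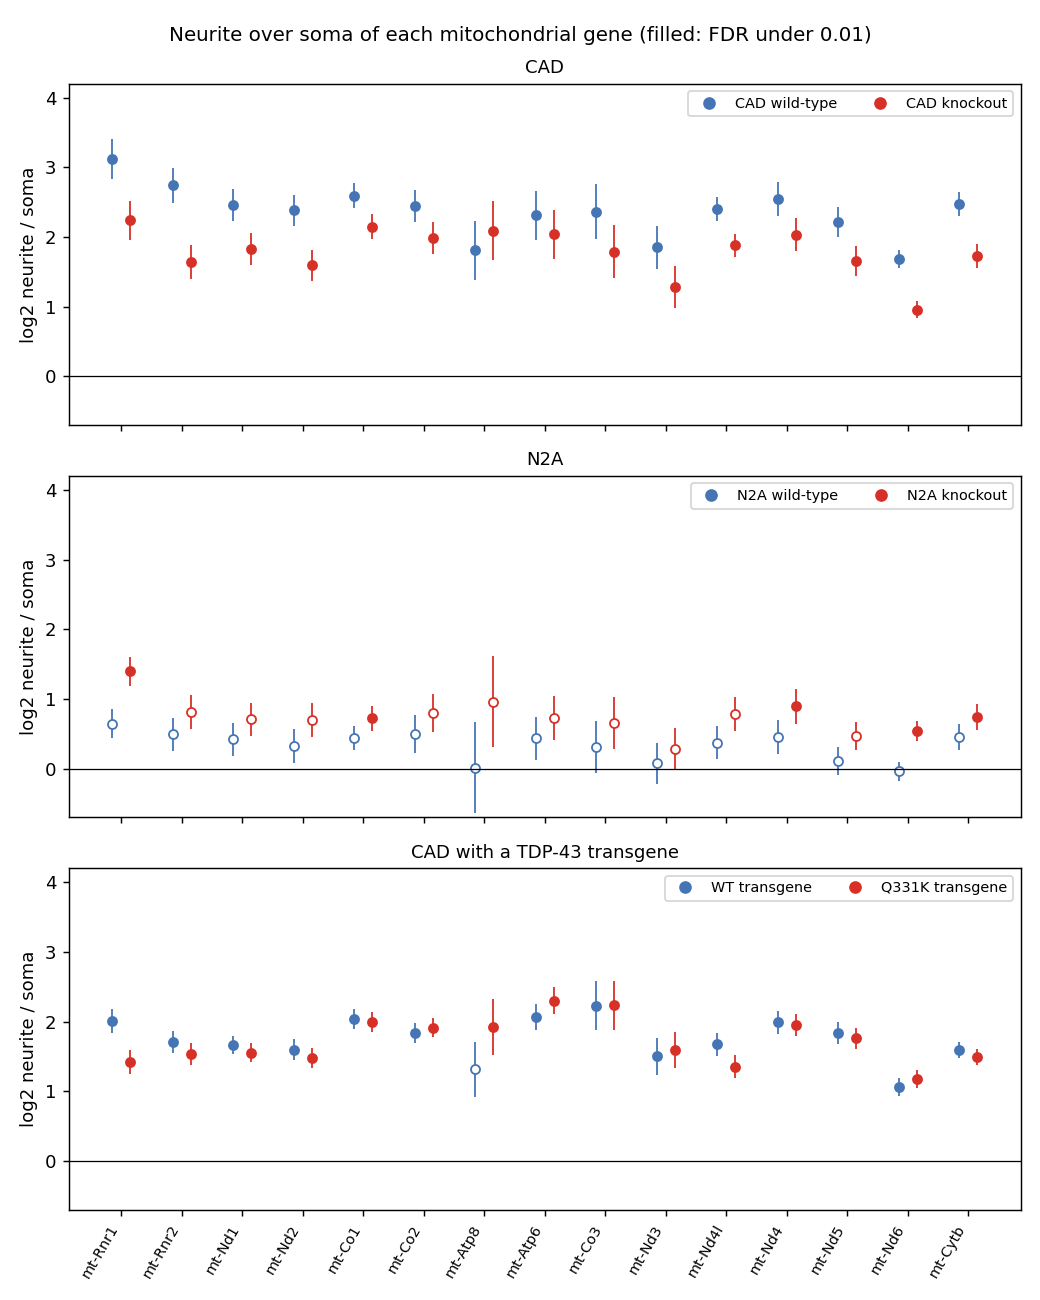
Neurite over soma log2 ratio of the 15 mitochondrial coding and rRNA genes by genotype, in 1 panel per experiment, with edgeR standard errors as bars and filled points for an FDR under 0.01; genes follow their order on the mitochondrial genome. Coding genes and rRNAs lie between 1.68 and 3.11 in wild-type CAD cells and between -0.04 and 0.64 in wild-type N2A cells.

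In wild-type N2A cells, edgeR called 0 of 22 members between neurite and soma, against 59.2% of all 17912 tested genes called in either direction. 4 members had an unadjusted p under 0.05, and DESeq2 called 0. At an FDR of 0.05 there were 3 higher and 1 lower, beside 36.7% and 35.1% of all genes. Their median LR was 0.28, beside -0.03 for all tested genes, and the standard errors of these LRs were 0.140 to 0.650 for coding genes and rRNAs. With upper-quartile scaling the median LR of the members was -0.01 and that of all genes -0.33, the calls over all genes went from 5825 higher and 4773 lower to 4254 and 6624, and 1 member passed as lower. This scaling lowered both medians alike, and the members stood about as far above the typical gene as in the main test. A fit with the replicate number as a block did call members in this comparison, and their count is given in the closing section on processing. The check of pairing, made over all tested genes, was not met for these libraries, as same-numbered soma and neurite libraries correlated at -0.05, 0.02 and 0.03. That check does not speak for the members alone. Their same-numbered LRs were above 0 in every pair for the coding and rRNA genes except mt-Atp8, mt-Nd3 and mt-Nd6. They were 0.38, 0.41 and 0.46 for mt-Nd1, and -0.12, -0.03 and 0.02 for mt-Nd6. The absence of calls in the main test thus does not show equal levels in the fractions.

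In knockout N2A cells 5 of 22 members were higher in neurites and 0 lower (all genes called higher 25.3%), with a median LR of 0.70 beside 0.02 for all genes. They were mt-Rnr1 at 1.40 ± 0.21 (SE, edgeR adjusted p = 5.11e-05), mt-Nd4 at 0.89 ± 0.25, mt-Cytb at 0.75 ± 0.19, mt-Co1 at 0.72 ± 0.17 and mt-Nd6 at 0.54 ± 0.14. At an FDR of 0.05, 10 members were higher (all genes 30.5%). Leaving out the libraries numbered 2, or those numbered 3, left 1 call, and upper-quartile scaling, under which genes overall were called 3431 times higher and 3478 times lower (4534 and 2355 in the main test), also left 1.

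Cells with the WT transgene had 14 of 15 members higher in neurites and 0 lower (all genes called higher 14.9% of 13940), with a median LR of 1.71 beside -0.01 for all genes. The exception was mt-Atp8, at 1.32 ± 0.40 (SE, edgeR adjusted p = 0.0137). In cells with the Q331K transgene all 15 tested members were higher (all genes 16.7%), with a median LR of 1.59. mt-Nd6 again had the lowest LR of the coding genes, 1.06 ± 0.13 (SE, edgeR adjusted p = 6.73e-06) with the WT and 1.18 ± 0.13 (SE, edgeR adjusted p = 1.56e-06) with the Q331K transgene.

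The N2A and CAD lines were compared directly in one fit of their 8 groups, in which line and sequencing batch cannot be told apart. The LR in wild-type cells was lower in N2A than in CAD cells for 15 of 25 tested members and higher for 0, while 4.82% of all 19700 tested genes were called lower. The median difference over members was -2.01 and over all genes 0.04. mt-Rnr1 differed by -2.46 ± 0.38 (SE, edgeR adjusted p = 7.17e-05), mt-Co1 by -2.15 ± 0.28 (SE, edgeR adjusted p = 8.85e-06) and mt-Nd6 by -1.71 ± 0.20 (SE, edgeR adjusted p = 2.3e-06). Of the 13 coding genes, mt-Co3 at -2.04 ± 0.61 (SE, edgeR adjusted p = 0.0134) and mt-Atp8 at -1.78 ± 0.88 (SE, edgeR adjusted p = 0.138) did not pass. With the copies added, mt-Co3 differed by -2.06 ± 0.33 (SE, edgeR adjusted p = 0.00011) and mt-Atp6 by -1.86 ± 0.43 (SE, edgeR adjusted p = 0.00197). Under upper-quartile scaling 17 members were lower and the calls over all genes were 1407 higher and 1855 lower, against 2673 and 950.

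The difference in LR lay mainly in the neurites. Wild-type neurites of N2A cells had lower levels than those of CAD cells for 16 of 25 members and higher levels for 0 (all genes called lower 23.9%), with a median difference of -1.65 against 0.06 for all genes. In soma 1 member was lower, mt-Co1 at -0.73 ± 0.20 (SE, edgeR adjusted p = 0.00241), and 1 was higher, the tRNA mt-Tm at 3.13 ± 0.60 (SE, edgeR adjusted p = 8.01e-05) (all genes 30% lower and 21.2% higher). The mt-Tm value rests on few reads, 2, 6 and 10 in wild-type CAD soma and 41, 60 and 41 in wild-type N2A soma. The mt-Co1 call in soma was lost without the libraries numbered 3, and with upper-quartile scaling, where 2 members were higher and 0 lower and the calls over all genes were 5632 higher and 4706 lower, against 4176 and 5913.

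Between knockout and wild-type cells, which also differ in doxycycline, the CAD soma fraction gave no call among the 22 members. By edgeR 0 passed, against 22.8% of all genes called in either direction, 4 had an unadjusted p under 0.05 and DESeq2 called 0. Their median knockout minus wild-type difference was 0.17, with 0.70 ± 0.22 (SE) for mt-Nd2 and 0.69 ± 0.22 for mt-Co2 the highest. With its copy added, mt-Atp6 was at 0.74 ± 0.24 and did not pass either. At an FDR of 0.05, 3 members were higher, beside 15.9% of all genes. Without the libraries numbered 2, 4 members were called higher, and without those numbered 1, 1 was.

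In CAD neurites 4 of 22 members were lower in the knockout and 0 higher, when 13.5% of all genes were called lower, and the median difference was -0.50 beside 0.00. Both rRNAs fell, mt-Rnr1 by 1.18 ± 0.27 and mt-Rnr2 by 1.06 ± 0.24 on the log2 scale (SE, edgeR adjusted p = 0.00253 and 0.00223). mt-Nd6 differed by -0.83 ± 0.13 (SE, edgeR adjusted p = 8.91e-05) and mt-Cytb by -0.62 ± 0.17 (SE, edgeR adjusted p = 0.00901). For these 4 genes all 3 knockout neurite libraries lay below all 3 wild-type neurite libraries, as their values above show. Leaving out the libraries numbered 1, or those numbered 3, left 2 of the calls. The complex V subunits mt-Atp6 and mt-Atp8 were on the other side of 0, at 0.20 ± 0.33 (0.41 ± 0.24 with the copy added) and 0.60 ± 0.41 (SE), and did not pass.

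The change of LR itself, knockout minus wild-type, was below 0 for 19 of 22 members in CAD cells, with a median of -0.57 beside -0.01 for all genes. None passed in edgeR (0 of 22; 8 with an unadjusted p under 0.05; DESeq2 0), where 0.432% of all genes did. The rRNAs had the most negative changes of the coding and rRNA members, -1.10 ± 0.33 (SE, edgeR adjusted p = 0.189) for mt-Rnr2 and -0.87 ± 0.38 (SE, edgeR adjusted p = 0.425) for mt-Rnr1.

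In N2A cells every member called between genotypes was higher in the knockout. Of 22 members 5 were higher in knockout neurites and 0 lower, against 6.48% of all genes called higher, and their median difference was 0.82 beside -0.01. mt-Co2 measured 2830, 4950 and 4255 CPM in wild-type soma, 3742, 7087 and 6204 in wild-type neurites, 7029, 10630 and 7440 in knockout soma and 11730, 20670 and 11210 in knockout neurites. mt-Nd3 measured 78.3, 123 and 152 CPM in wild-type soma, 85.8, 146 and 141 in wild-type neurites, 139, 294 and 271 in knockout soma and 230.1, 391 and 239 in knockout neurites. Knockout libraries were above all wild-type libraries in both fractions for mt-Co2, and in neurites for mt-Nd3 (in both fractions with its copy added). The neurite difference was 1.36 ± 0.28 (SE, edgeR adjusted p = 0.00272) for mt-Co2 and 1.21 ± 0.30 (SE, edgeR adjusted p = 0.00891) for mt-Nd3, or 1.004 ± 0.18 (SE, edgeR adjusted p = 0.000951) with the copy added.

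mt-Cytb measured 6702, 9603 and 7929 CPM in wild-type soma, 8748, 13430 and 10900 in wild-type neurites, 13020, 16720 and 14480 in knockout soma and 22380, 31170 and 20580 in knockout neurites of N2A cells. mt-Co1 measured 8051, 10750 and 9409 CPM in wild-type soma, 10120, 14990 and 13080 in wild-type neurites, 12680, 16030 and 14430 in knockout soma and 21330, 29460 and 20320 in knockout neurites. For both genes the knockout libraries were above all wild-type libraries in soma and in neurites. The neurite differences were 1.16 ± 0.19 (SE, edgeR adjusted p = 0.000457) for mt-Cytb, 0.90 ± 0.17 (SE, edgeR adjusted p = 0.00183) for mt-Co1 and 1.02 ± 0.24 (SE, edgeR adjusted p = 0.00642) for mt-Nd1, a complex I subunit. With its copy added, mt-Co3 also passed in neurites, at 0.98 ± 0.21 (SE, edgeR adjusted p = 0.00405). At an FDR of 0.05, 12 members were higher (all genes 10.8%). Leaving out the N2A libraries numbered 2, or those numbered 3, left 1 of the 5 calls.

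In N2A soma mt-Cytb alone was higher in the knockout, by 0.87 ± 0.19 (SE, edgeR adjusted p = 0.00333), with 0 members lower, 7 of 22 at an unadjusted p under 0.05 and 10.9% of all genes called higher. At an FDR of 0.05, 5 members were higher (all genes 18.5%). The call was lost without the libraries numbered 3. With the copies added, mt-Co2 at 1.06 ± 0.27 (SE, edgeR adjusted p = 0.0087) and mt-Nd3 at 0.86 ± 0.18 (SE, edgeR adjusted p = 0.00245) passed as higher too. The N2A soma libraries with the same number deviated together in the 2 genotypes, and with the replicate number as a block 8 members were higher in edgeR, mt-Nd1, mt-Nd2, mt-Co1, mt-Co2, mt-Atp6, mt-Nd3, mt-Nd4l and mt-Cytb, by 0.48 (mt-Nd4l) to 1.07 (mt-Co2) on the log2 scale. The share of all genes called with the block is not given here, so these 8 calls are not set against a background. Under upper-quartile scaling the N2A soma calls over all genes were 1435 higher and 1492 lower, against 1955 and 922 in the main test.

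The rRNAs and mt-Nd6 did not pass in either N2A fraction. mt-Rnr1 measured 846, 992 and 808 CPM in wild-type soma, 1041, 1866 and 1225 in wild-type neurites, 751, 947 and 694 in knockout soma and 1992, 2708 and 1605 in knockout neurites. mt-Rnr2 measured 1315, 1984 and 1805 CPM in wild-type soma, 1575, 3066 and 2534 in wild-type neurites, 1939, 2875 and 2196 in knockout soma and 3619, 5456 and 3237 in knockout neurites. mt-Nd6 measured 401, 482 and 500.5 CPM in wild-type soma, 369.8, 470.4 and 507 in wild-type neurites, 429.8, 477 and 416 in knockout soma and 540.4, 779.6 and 603 in knockout neurites. In neurites the knockout libraries of mt-Rnr2 and mt-Nd6 were above the wild-type ones and those of mt-Rnr1 overlapped them, and in soma all 3 overlapped. Their neurite differences were 0.61 ± 0.21 (SE) for mt-Rnr1, 0.78 ± 0.24 for mt-Rnr2 and 0.51 ± 0.14 for mt-Nd6. The change of LR passed for 0 of 22 members in edgeR (2 at an unadjusted p under 0.05; DESeq2 0; all genes 0.1%), and its median over members was 0.35.

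RNAs that stay in the nucleus of the cell body, a list of 8 long noncoding and related RNAs, served as a check of the fractions. In wild-type N2A cells 6 of the 7 tested were lower in neurites and 0 higher, with a median LR of -1.83 (all genes called lower 26.6%). In knockout N2A cells 1 was lower, with a median of -0.75 (all genes 13.1%). The change of LR itself passed for 0 of 7 in edgeR (all genes 0.1%), with 2 at an unadjusted p under 0.05 and a median of 1.04. In CAD cells 4 of 7 were lower in wild-type, with a median LR of -1.31 (all genes 17.7%), and 2 in knockout cells, with -0.81 (all genes 19.0%). In the transgene cells 6 were tested and 0 passed in either direction, so the check gave no call there. Of all genes, 14.9% were called higher with the WT and 16.7% with the Q331K transgene, and the share called lower is not given here. Their median LR was -0.22 with the WT and -0.95 with the Q331K transgene, with 2 and 5 at an unadjusted p under 0.05. The summed level of the list was 1112 to 3311 CPM in wild-type and 695 to 2457 CPM in knockout N2A soma, and 449 to 718 and 582 to 986 CPM in the neurites. Malat1 averaged 1534 CPM in wild-type and 996 CPM in knockout N2A soma (edgeR adjusted p = 0.37). The part of these nuclear RNAs in the mitochondrial differences was not tested.

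**Figure D3:**
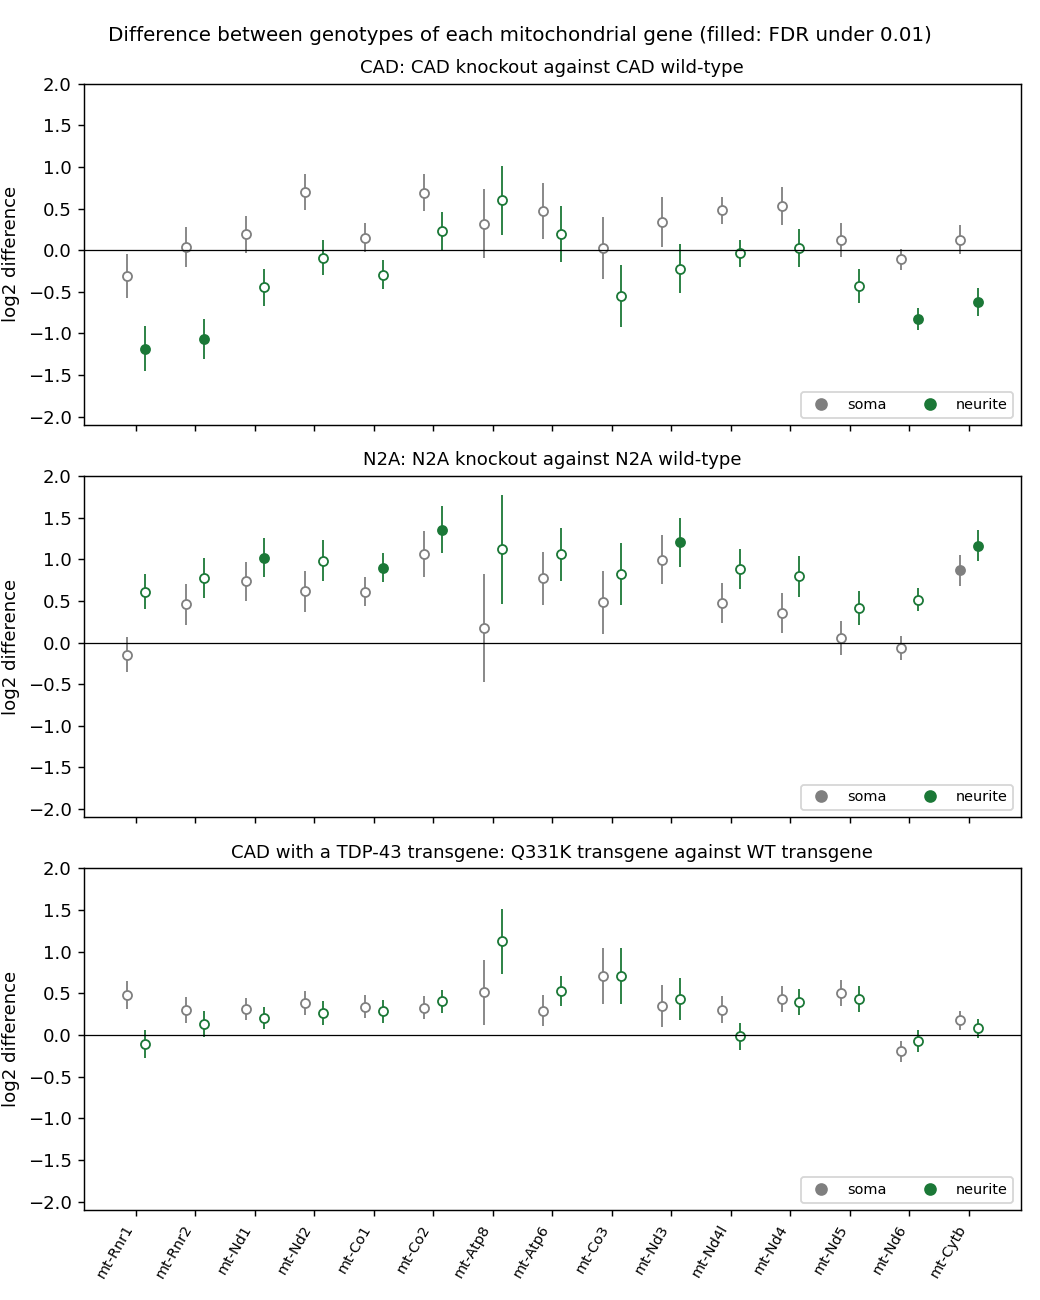
Knockout minus wild-type, or Q331K minus WT transgene, log2 difference of the 15 mitochondrial coding and rRNA genes in soma (grey) and neurites (green), with edgeR standard errors as bars and filled points for an FDR under 0.01. In CAD neurites the rRNAs, mt-Nd6 and mt-Cytb lie lowest among coding and rRNA genes, from -1.18 to -0.62, and in N2A neurites the coding and rRNA genes lie between 0.41 and 1.36.

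Whether the genotype effect on LR differed between the lines was tested as the N2A change minus the CAD change. No member passed in edgeR (0 of 25; 7 at an unadjusted p under 0.05; all genes 0.203%), while DESeq2 called 1, mt-Nd6, and edgeR 1 at an FDR of 0.05, beside 0.391% of all genes called higher. The median of the difference was 0.93 over members and -0.04 over all genes. mt-Nd6 was at 1.27 ± 0.29 (SE, edgeR adjusted p = 0.035), mt-Rnr1 at 1.61 ± 0.53 (SE, edgeR adjusted p = 0.12) and mt-Rnr2 at 1.40 ± 0.54 (SE, edgeR adjusted p = 0.166).

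The Q331K transgene gave no call on any member. In soma, neurites and the change of LR, 0 of 15 passed in edgeR, with 7, 5 and 1 at an unadjusted p under 0.05 and 0, 0 and 0 called by DESeq2, and 0% of all genes passed in each. The median differences over members were 0.34 in soma and 0.29 in neurites, beside 0.00 and -0.01 over all genes. mt-Co1 measured 16250, 14150 and 14970 CPM in WT transgene soma, 61440, 74560 and 51230 in WT transgene neurites, 21720, 16830 and 18740 in Q331K transgene soma and 72710, 71530 and 84290 in Q331K transgene neurites. mt-Co2 measured 7095, 6047 and 6685 CPM in WT transgene soma, 23860, 25580 and 21570 in WT transgene neurites, 9015, 6864 and 9010 in Q331K transgene soma and 27340, 28980 and 37610 in Q331K transgene neurites. mt-Cytb measured 6505, 5737 and 6452 CPM in WT transgene soma, 18150, 21300 and 17020 in WT transgene neurites, 7713, 6409 and 6993 in Q331K transgene soma and 18400, 19190 and 22010 in Q331K transgene neurites. For all of these every neurite library was above every soma library, and the transgene groups did not overlap for mt-Co1 in soma and mt-Co2 in neurites, with or without the copies.

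In the transgene cells the remaining genes followed the same order of fractions. mt-Nd3 measured 53.0, 131 and 119 CPM in WT transgene soma, 335, 303 and 220.3 in WT transgene neurites, 114, 159 and 112 in Q331K transgene soma and 359, 307 and 496 in Q331K transgene neurites. With its copy these were 414, 363 and 444 CPM in WT transgene soma, 940, 1051 and 803 in WT transgene neurites, 489, 396 and 585 in Q331K transgene soma and 1001, 977 and 1536 in Q331K transgene neurites, and the transgene groups overlapped either way. mt-Rnr1 measured 359, 321 and 314 CPM in WT transgene soma, 1161, 1707 and 1133 in WT transgene neurites, 496, 544 and 344 in Q331K transgene soma and 1131, 1159 and 1424 in Q331K transgene neurites. mt-Rnr2 measured 1037, 1205 and 1133 CPM in WT transgene soma, 3072, 4519 and 3429 in WT transgene neurites, 1517, 1283 and 1351 in Q331K transgene soma and 3375, 3479 and 5193 in Q331K transgene neurites. Levels with the WT and Q331K transgenes overlapped for both rRNAs, except that every Q331K library was above every WT library for mt-Rnr2 in soma. mt-Nd6 measured 326, 338 and 375 CPM in WT transgene soma, 725, 846 and 596 in WT transgene neurites, 349.6, 251 and 308 in Q331K transgene soma and 679.7, 634 and 747 in Q331K transgene neurites. The Q331K change of LR of mt-Nd4l, a complex I subunit, was -0.32 ± 0.23 (SE) alone and 0.19 ± 0.21 with its copy added, so its sign turned with the copy, and neither passed.

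The make-up of the mitochondrial mRNA pool was compared per length, as the percent of the summed TPM of the 13 coding genes that each held, with the nuclear copies added to their genes. This measure and the ratios that follow were chosen after values had been seen. In wild-type CAD neurites mt-Co1 held 20.4% ± 1.18 (SD, n = 3) and mt-Atp6 15.6% ± 0.583 of the pool, and in the knockout 17.7% ± 0.855 and 21.4% ± 0.313. For mt-Atp6 the single libraries were at 14.97, 16.1 and 15.9% in wild-type and 21.8, 21.3 and 21.2% in knockout neurites of CAD cells. The knockout libraries were above the wild-type range. mt-Co2 held 12.7% ± 0.398 and 15.7% ± 0.365 in wild-type and knockout CAD neurites, while mt-Co3 went from 9.20% ± 0.279 to 6.96% ± 0.0373 and mt-Cytb from 9.46% ± 0.257 to 6.40% ± 0.123. CAD soma changed in the same directions. From wild-type to knockout soma the means went from 16.37 to 20.85% for mt-Atp6 and from 12.26 to 14.98% for mt-Co2. They went from 18.2 to 14.84% for mt-Co1, from 9.32 to 7.226% for mt-Co3 and from 9.044 to 7.375% for mt-Cytb. In both CAD fractions the libraries of the 2 genotypes did not overlap for mt-Atp6, mt-Co1, mt-Co2, mt-Co3 and mt-Cytb (exact permutation test, p = 0.1 for each, the smallest possible, n = 3).

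In N2A cells mt-Atp6 and mt-Co2 also held a larger part of the pool in the knockout. mt-Co2 went from 12.2% ± 0.275 to 15.9% ± 0.679 in soma and from 13.3% ± 0.663 to 16.5% ± 0.708 in neurites (SD, n = 3). mt-Atp6 went from 14.2% ± 0.468 to 16.7% ± 0.331 in soma and from 15.1% ± 0.509 to 16.6% ± 0.610 in neurites. The complex I genes mt-Nd5 and mt-Nd4 held less, with mt-Nd5 at 2.73% ± 0.169 and 1.80% ± 0.114 and mt-Nd4 at 7.58% ± 0.102 and 6.49% ± 0.251 in wild-type and knockout N2A neurites. The N2A libraries of the 2 genotypes did not overlap for mt-Co2, mt-Atp6, mt-Nd5 and mt-Nd4 (exact permutation test, p = 0.1 for each, the smallest possible, n = 3). In CAD soma mt-Nd5 also held less in the knockout, at 2.686 and 2.193%. There mt-Nd4 and mt-Nd4l held more, going from 6.71 to 7.381% and from 7.499 to 8.106% without overlap. mt-Cytb went from 12.2% ± 1.13 to 13.4% ± 0.947 in N2A neurites, and mt-Co1 from 12.2% ± 1.30 to 10.7% ± 1.44. Between transgenes, mt-Atp6 held 18.7% ± 0.0584 with the WT and 18.1% ± 0.878 with the Q331K transgene in neurites.

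**Figure D4:**
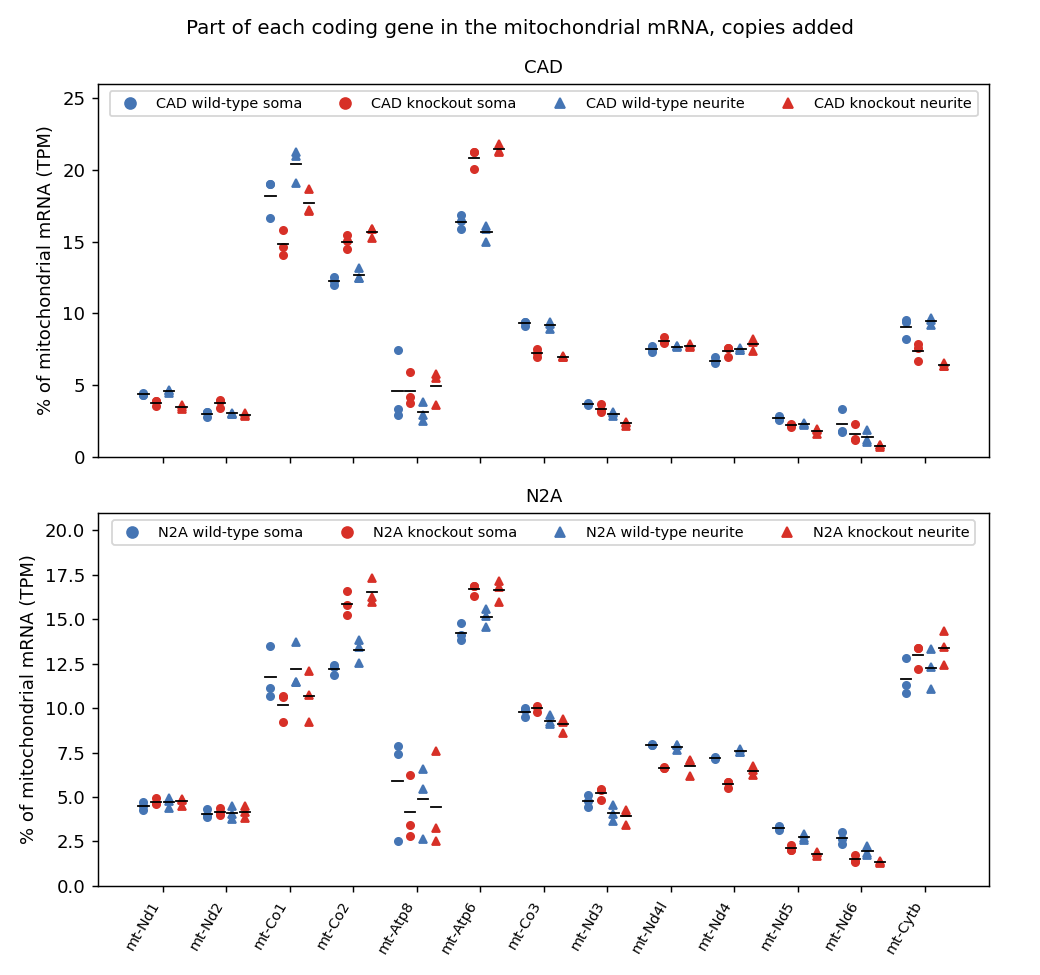
Percent of the summed TPM of the 13 mitochondrial coding genes held by each gene, nuclear copies added, in CAD and N2A cells; circles are soma and triangles neurite libraries, blue is wild-type and red knockout, and horizontal lines are means. In CAD neurites mt-Atp6 goes from 15.6 to 21.4% in the mean between wild-type and knockout and mt-Cytb goes from 9.46 to 6.40%. In CAD soma mt-Atp6 goes from 16.37 to 20.85% and mt-Cytb from 9.044 to 7.375%.

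The rRNA counts per 100 mRNA counts of the mitochondrial genome were lower in the knockout in both fractions of both lines. In CAD soma they were 3.95, 3.43 and 3.21 in wild-type and 3.15, 2.92 and 2.25 in knockout libraries, and in CAD neurites 4.82, 4.83 and 4.12 and 2.30, 2.74 and 2.30. In N2A soma they were 6.62, 5.69 and 5.76 in wild-type and 4.67, 4.66 and 4.42 in knockout libraries, and in N2A neurites 6.38, 7.10 and 6.13 and 5.96, 5.35 and 5.17. In each of these 4 comparisons the highest knockout library lay below the lowest wild-type library (exact permutation test, two-sided, p = 0.1 for each, adjusted over 9 comparisons 0.18, n = 3). The knockout over wild-type ratio was 0.533 in CAD neurites, against 0.786 in CAD soma, 0.761 in N2A soma and 0.840 in N2A neurites. With the transgenes the values overlapped, with means of 3.54 and 3.57 in soma and 3.27 and 2.73 in neurites for WT and Q331K (exact permutation test, p = 0.9 and 0.2, n = 3). As a share of all counts, the rRNAs averaged 0.784% in wild-type and 0.394% in knockout CAD neurites, without overlap. The wild-type and knockout means were 0.174% and 0.165% in CAD soma. They were 0.296% and 0.338% in N2A soma and 0.344% and 0.544% in N2A neurites, and the libraries overlapped in each of these.

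mt-Nd6 counts per 100 counts of the other 12 mitochondrial mRNAs compare the coding gene of one strand with those of the opposite strand. They were 0.738, 0.414 and 0.515 in wild-type and 0.390, 0.289 and 0.381 in knockout neurites of CAD cells, and 1.39, 0.720 and 0.793 and 1.05, 0.526 and 0.628 in soma, where the groups overlapped (exact permutation test, p = 0.5, n = 3). In N2A cells they were 1.24, 0.929 and 1.12 in wild-type and 0.752, 0.585 and 0.640 in knockout soma, and 0.910, 0.682 and 0.834 and 0.577, 0.513 and 0.648 in neurites. With the transgenes they were 0.744, 0.899 and 0.902 with WT and 0.582, 0.571 and 0.595 with Q331K in soma, and 0.484, 0.484 and 0.454 and 0.394, 0.358 and 0.339 in neurites. In all but CAD soma the knockout or Q331K libraries lay below the others, with mean ratios from 0.601 (N2A soma) to 0.767 (Q331K neurites) (exact permutation test, p = 0.1 for each, adjusted over 9 comparisons 0.15, n = 3). mt-Nd6 overlaps mt-Nd5 on the opposite strand, and whether the counting used strand is not given in the sources used here. Whether polyA selection captured mt-Nd6 as well as the other 12 mRNAs was not tested.

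**Figure D5:**
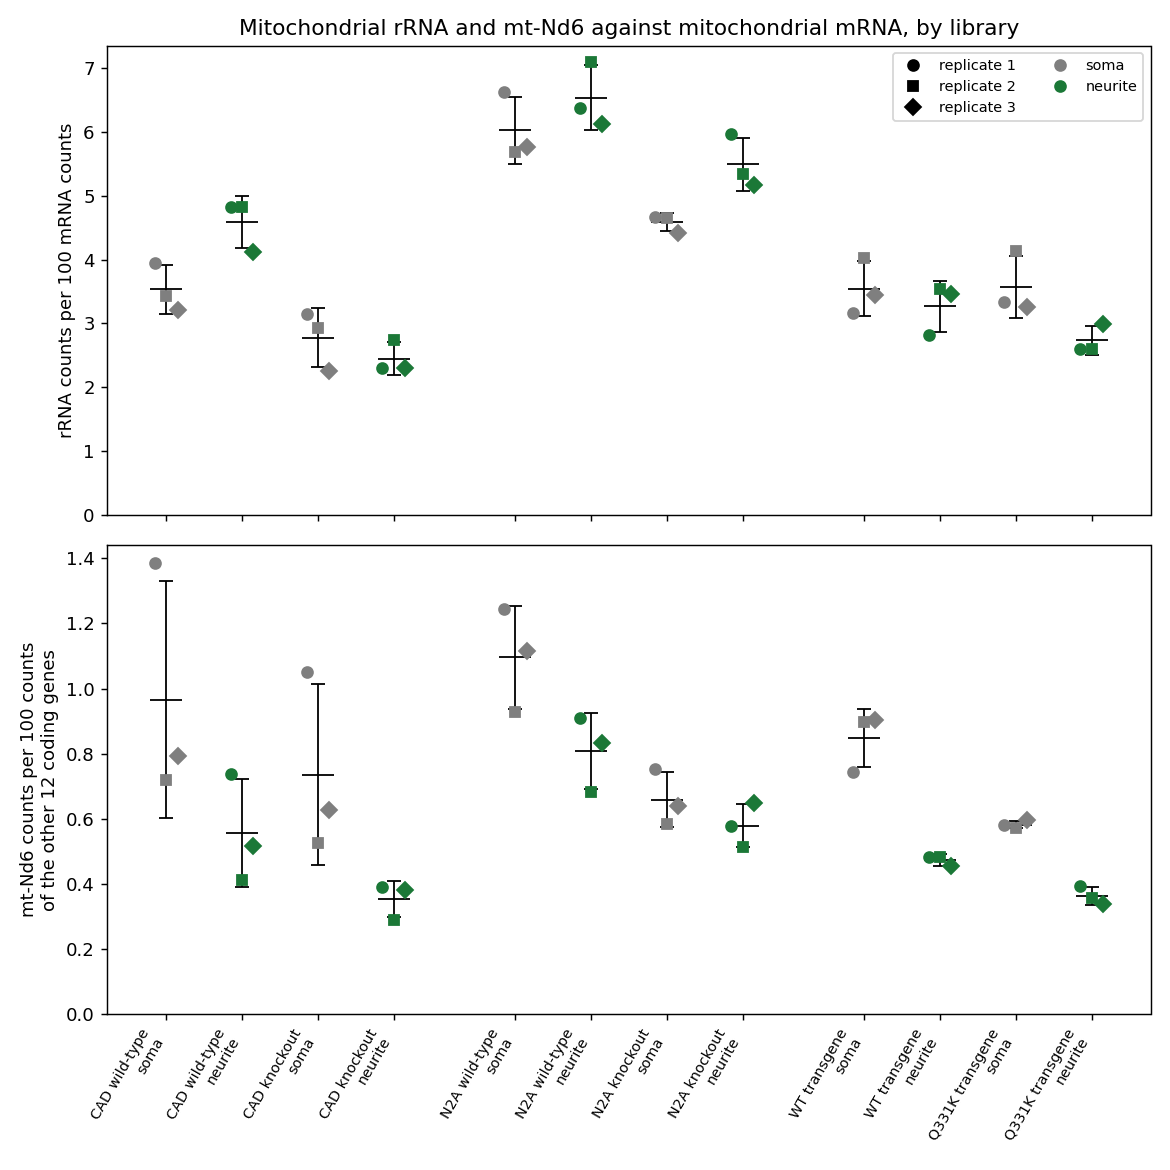
Mitochondrial rRNA counts per 100 mitochondrial mRNA counts and mt-Nd6 counts per 100 counts of the other mitochondrial mRNAs, by line, genotype and fraction; points are libraries (marker shape for the replicate number), horizontal lines are means and error bars are SD. The rRNA ratio in CAD neurites has means of 4.59 in wild-type and 2.45 in knockout libraries.

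The base make-up of mt-Nd6 differed from that of the other coding and rRNA members, with 28.1% G and 43.7% T in its RNA-sense sequence against 5.88 to 16.2% G and 26.4 to 32.8% T in the 14 others. TDP-43 is known to bind GU-rich RNA, so the sense strands of these 15 RNAs were searched for TGTGTG and, in the other register, GTGTGT, then for the shorter TGTGT and, in turn, GTGTG, whose matches may overlap. TGTGTG was found in 1 of 15, mt-Nd6, and GTGTGT in 0. TGTGT was found in mt-Nd6 alone, at 2 places, and GTGTG once in mt-Nd6 and once in mt-Rnr1. GTATG, the RNA form of which the study also counts as a TDP-43 motif, was not searched. The nuclear windows were the first bases, to the same length, of the longest transcript of each coding gene. They held TGTGTG in 7.27 to 53.6% of genes and GTGTG in 20.0 to 86.4%, rising with length. Such windows start at the 5′ end, whereas the study found its motifs enriched in 3′ UTRs. The TGTGTG of mt-Nd6, which contains 1 of its 2 TGTGT matches, and the GTGTG of mt-Rnr1 are shown with the motif in capitals, because neither was found in any of the other 13 RNAs.
mt-Nd6: ttttttaattTGTGTGcttaattatt
mt-Rnr1: atactggaaaGTGTGcttggaataa

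Mitochondrial tRNAs carry no long polyA tail, and their counts were low. The 3 with the most reads over all libraries were mt-Tp (4394), mt-Tm (853) and mt-Tl1 (796). In wild-type CAD cells mt-Tm, mt-Tl1 and mt-Tp were higher in neurites, with LRs of 3.23 ± 0.60 (SE, edgeR adjusted p = 0.000289), 1.97 ± 0.38 (SE, edgeR adjusted p = 0.000351) and 1.79 ± 0.25 (SE, edgeR adjusted p = 1.55e-05). In knockout CAD cells mt-Tl1 (1.67 ± 0.40, SE) and mt-Ts1 (2.55 ± 0.52) were higher. The soma libraries held 2, 6 and 10 reads of mt-Tm in wild-type and 3, 4 and 5 of mt-Ts1 in knockout CAD cells. mt-Tm and mt-Tp were also among the members with a lower LR in N2A than in CAD cells, and mt-Tl1 and mt-Tp among those with lower neurite levels.

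Nuclear genes for mitochondrial functions were set beside the members. The list of 14 outer membrane, import and matrix proteins, which mark the organelle, had 14 of 14 tested genes higher in neurites and 0 lower in wild-type CAD cells, with a median LR of 0.50 (all genes called higher 23.7%), and 14 of 14 in wild-type N2A cells, with a median of 1.01 (all genes 32.5%). In WT and Q331K transgene cells 8 and 10 of 14 were higher, with medians of 0.32 and 0.40 (all genes 14.9% and 16.7%). Over all tested genes the medians were -0.02 in wild-type CAD and -0.03 in wild-type N2A cells. These mRNAs are made in the nucleus, so their place is not that of the organelle itself. In N2A cells the median LR of this list was above that of the mitochondrially encoded members (0.28), and in CAD cells below it (2.34). The change of LR between genotypes passed for 0 of the 14 in N2A cells (all genes 0.1%), with a median of -0.36 and 11 at an unadjusted p under 0.05. In CAD cells it also passed for 0 (all genes 0.432%), with a median of 0.02 and 0 at an unadjusted p under 0.05.

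Of the genes for mitochondrial RNA processing, stability and decay, 10 of 25 were higher in wild-type CAD neurites and 20 of 25 in wild-type N2A neurites, with 0 lower in either and medians of 0.26 and 0.63. Over all tested genes 23.7% were called higher in CAD and 32.5% in N2A neurites, and 17.7% and 26.6% lower. Of those for transcription and mtDNA upkeep, 8 of 18 were higher and 2 lower in CAD, and 14 higher and 2 lower in N2A cells, with medians of 0.34 and 0.70, beside the same shares of all genes. Slirp, whose protein binds LRPPRC on mitochondrial mRNAs, had an LR of 1.33 ± 0.13 (SE, edgeR adjusted p = 5.14e-07) in wild-type CAD cells. Between genotypes, 8 of the 25 RNA processing genes were higher and 1 lower in CAD knockout neurites (all genes 11.8% and 13.5%), and 1 higher and 0 lower in N2A neurites (all genes 6.48% and 5.1%). Lrpprc was higher in the knockout, by 0.53 ± 0.05 (SE, edgeR adjusted p = 9.19e-07) in CAD and 0.29 ± 0.07 (SE, edgeR adjusted p = 0.0079) in N2A neurites. The 1 lower gene in CAD neurites was Ptcd2, named after its value was seen and needed for the processing of the mt-Cytb transcript, which differed by -1.18 ± 0.10 (SE, edgeR adjusted p = 1.34e-07). Of the 18 transcription and mtDNA genes 4 were higher and 2 lower in CAD knockout neurites. Polrmt, the mitochondrial RNA polymerase, differed by -0.42 ± 0.09 (SE, edgeR adjusted p = 0.00155) in CAD neurites, and Top1mt, the mitochondrial topoisomerase, by 0.67 ± 0.09 (SE, edgeR adjusted p = 3.33e-05).

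Of the genes for transport of mitochondria along neurites, 8 of 16 were higher and 1 lower in wild-type CAD neurites (median LR 0.26), and 6 of 15 higher and 2 lower in wild-type N2A neurites (median 0.14), where 23.7% and 17.7% of all genes were called higher and lower in CAD, and 32.5% and 26.6% in N2A cells. In CAD cells the adaptor Trak2 had an LR of 4.74 ± 0.13 (SE, edgeR adjusted p = 3.43e-13), and the kinesin heavy chains Kif5c and Kif5b 4.72 ± 0.15 (SE, edgeR adjusted p = 1.64e-12) and 4.42 ± 0.16 (SE, edgeR adjusted p = 4.7e-12). Comparing the lines, 11 of 16 were lower in N2A than in CAD soma and 0 higher, with a median difference of -0.55 (all genes 30.0% lower and 21.2% higher), and 12 were lower and 1 higher in neurites, with a median of -0.69 (all genes 23.9% and 23.2%). The change of LR between genotypes passed for 0 of these genes in edgeR in CAD cells (16 tested, 3 at an unadjusted p under 0.05), N2A cells (15 tested, 8) and transgene cells (16 tested, 0). Of all genes, 0.432%, 0.1% and 0% passed in the same order, so few calls could arise in any list.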

How the data were processed

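PolyA-selected RNA from soma and neurite fractions of mouse cells was sequenced in 36 libraries, 3 for each of 12 groups. Per the labels and methods, the authors trimmed adapters with cutadapt and quantified transcripts with salmon against mouse transcripts (mm10; the methods name Gencode version 17). The deposited files hold estimated counts, TPM and effective lengths for each transcript. Here estimated counts were summed to genes and rounded, with gene names, positions and sequences from a GRCm38 annotation matched by transcript identifier (at most 0.129% of counts had no match). The members and lists were chosen with earlier results of these data known.

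Each experiment (CAD, N2A, transgenes) was fitted with its 4 groups, and the lines with 8, in edgeR 4.0.16 (R 4.3.3, limma 3.58.1) with TMM scaling, filterByExpr by group, the quasi-likelihood test and Benjamini-Hochberg adjustment over all tested genes at an FDR of 0.01. CPM are counts scaled by the TMM library size, and shares are percent of a library's counts. Single values were compared by two-sided exact permutation tests (scipy 1.17.1). The study tested fractions with DESeq2, which was run as an alternative (DESeq2 1.42.0). Scripts were tested on simulated data. Totals were 9783050 to 32895542 counts per library.

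Genes with symbols starting mt- and at least 10 reads were described. Values in every library were given for the summed coding genes, mt-Nd6, both rRNAs, the coding genes with the highest and lowest LR in wild-type CAD cells and the 3 coding genes with the largest change in a called genotype comparison. tRNA genes were named by most reads and where called, other genes from the lists (up to 3 called genes a list, by largest change, and Slirp, Lrpprc, Ptcd2, Polrmt, Top1mt, Malat1, Nefl, Nefm, Ddc, Slc18a2 and Slc6a2 for their roles, chosen after their values were seen), and nuclear copies where they held 1% or more of the reads.

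Whether equal replicate numbers pair libraries was checked by correlating deviations from group means. All 3 pairs exceeded 0.1 for wild-type and knockout N2A soma (0.55, 0.12 and 0.32) and for soma and neurites of wild-type CAD cells (0.135, 0.100 and 0.230), and not elsewhere. Alternatives covered scaling, filters, FDR, length-scaled counts, added nuclear copies, the block, DESeq2 and leaving out each replicate.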

Additional observations from a re-analysis of the deposited data

Results flagged for a closer look

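Results were picked out here where the difference between wild-type N2A and CAD cells in the neurite over soma log2 ratio (LR) itself passed edgeR's quasi-likelihood test at an adjusted p under 0.01. This applied to 15 of 25 tested members, all with a lower LR in N2A cells, against 4.82% of all tested genes called lower. The differences were -2.46 for mt-Rnr1 and -2.24 for mt-Rnr2 among the rRNAs. Among complex I subunits they were -2.03 for mt-Nd1, -2.04 for mt-Nd2, -1.76 for mt-Nd3, -2.08 for mt-Nd4, -2.02 for mt-Nd4l, -2.1 for mt-Nd5 and -1.71 for mt-Nd6. They were -2.02 for mt-Cytb of complex III, -2.15 for mt-Co1 and -1.93 for mt-Co2 of complex IV, and -1.86 for mt-Atp6 of ATP synthase. With the nuclear copies added, mt-Nd3 differed by -1.89, mt-Co2 by -1.93 and mt-Atp6 by -1.86. The tRNAs mt-Tm and mt-Tp differed by -3.11 and -1.88. Line and sequencing batch cannot be told apart in these values. Groups of 3 libraries were too small for a test of single outlying libraries.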

How the results depend on the processing

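Of 247 counts of called members under an alternative, 194 were within 1.5 times the count in the main test and 53 were not, and of 1340 values of single named members, 1278 kept their call, 62 lost it and 0 reversed. At an FDR of 0.05 the calls became 3 in CAD soma, 4 in wild-type N2A LR, 10 in knockout N2A LR, 5 in N2A soma, 12 in N2A neurites and 1 in the LR change between lines. Without a filter on low counts, which tests more genes, they became 6 in CAD soma, 10 in CAD neurites, 6 in the CAD LR change, 9 and 15 in wild-type and knockout N2A LR, 10 in N2A soma, 15 in N2A neurites, 2 in the N2A LR change, 5, 5 and 2 for Q331K soma, neurites and LR change, 5 in soma between lines and 5 in the LR change between lines. A filter of at least 10 counts in every library gave 2 in knockout N2A LR and 8 in N2A neurites. Length-scaled counts gave 1 in CAD soma, 2 in wild-type N2A LR, 5 in N2A soma and 8 in N2A neurites. DESeq2 size factors gave 3 in knockout N2A LR and 2 in N2A soma, library sizes from nuclear genes 3 and 3, upper-quartile scaling 1 in wild-type and 1 in knockout N2A LR, added nuclear copies 3 in N2A soma, and the DESeq2 test 3 in N2A soma and 1 in the LR change between lines. The causes were not tested. Calls over all genes are given above only for an FDR of 0.05 and for upper-quartile scaling. The other counts, with those of the block and of left-out replicates below, describe the dependence on processing and are not results about the members.

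With the replicate number as a block, calls became 5 in CAD soma, 7 in CAD neurites, 1 in the CAD LR change (mt-Rnr2), 10 and 14 in wild-type and knockout N2A LR, 8 in N2A soma, 14 in N2A neurites, 6 in soma between lines and 2 in the LR change between lines. The numbers pair libraries only where the check of deviations was met, and the block moved no other count by over 1.5 times. Leaving out each replicate gave 0 to 4 calls in CAD soma, 2 to 4 in CAD neurites, 1 to 5 in knockout N2A LR, 0 to 1 in N2A soma, 1 to 5 in N2A neurites and 1 to 3 in soma between lines.

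The log2 neurite over soma ratio of the mitochondrial mRNA share was 1.78 in wild-type CAD cells, 1.99 relative to nuclear counts, 0.65 from summed TPM and 1.26 from TPM without transcripts of short effective length (added after seeing the data). In knockout CAD cells these were 1.41, with 0.57 and 0.94 from TPM, and the change was -0.37 or -0.0745 from summed TPM, where the genotypes then overlapped. In N2A cells the wild-type value was 0.05, with -1.17 and -0.17 from TPM, the knockout value 0.41, with -0.55 and 0.15, and the change 0.35, with 0.62 and overlapping genotypes from summed TPM. In WT and Q331K transgene cells 1.35 and 1.32 became 0.84 and 0.81 from summed TPM and 0.85 and 0.81 without short transcripts. The log2 Q331K over WT ratio in neurites ranged from 0.13 to 0.33 on leaving out each replicate.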
